A study of Mus musculus with 12 samples.

Results

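The 77 genes described here are nuclear genes named for subunits of the oxidative phosphorylation machinery, chosen by name alone from 24394 gene symbols with an annotated transcript. A gene was taken when its symbol began with Nduf followed by a, b, c, s or v and a digit, with Uqcr, with Atp5, or with Cox and a digit from 4 to 8, or when it was Sdha, Sdhb, Sdhc or Sdhd. By name, 34 belong to complex I, 4 to complex II, 8 to complex III, 15 to complex IV and 16 to complex V. Ndufa4 and its paralogue Ndufa4l2 are named for complex I, but Ndufa4 is now placed in complex IV. Atp5s and Atp5sl carry an Atp5 name and are not structural subunits of the synthase. Ndufa13, at a mean of 306 FPKM on a row without an annotated transcript, and the merged rows of Ndufb2, Ndufb8 and Atp5o fall outside the rule.

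Oxidative phosphorylation makes ATP in the inner mitochondrial membrane. Complexes I and II pass electrons from NADH and succinate to ubiquinone, complex III passes them to cytochrome c, and complex IV passes them to oxygen. Complexes I, III and IV pump protons, and complex V, the ATP synthase, uses the gradient. Most subunits are encoded in the nucleus, and many of their promoters are known to bind the factors NRF1 and NRF2 (GABP, of the ETS family). Complex II is also an enzyme of the tricarboxylic acid cycle.

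The libraries hold ribosome-associated RNA of the myenteric plexus of the distal colon from C57BL/6 mice carrying Sox10::CreERT2+/- and Rpl22tm1.1Psam/J (RiboTag). In these mice a tamoxifen-dependent Cre driven by Sox10, a transcription factor of glia, switches on a tagged ribosomal protein. All groups ate tamoxifen chow (400 mg/kg) for 2 weeks and plain chow for 1 week. The 4 groups of 3 libraries were Saline_Vehicle (0.1 ml saline enema, 0.1% DMSO), DNBS_Vehicle (5 mg of the hapten DNBS in 50% ethanol, DMSO), Saline_GR159897 and DNBS_GR159897 (the same enemas with GR159897, a neurokinin-2 receptor antagonist, at 0.5 mg/kg). Injections were daily over 3 days from 24 hours before the enema, and tissue was taken 48 hours after it. No ethanol is listed for the saline enema, so DNBS and ethanol cannot be told apart. Females were 2 of 3 in DNBS_GR159897 and 1 of 3 in each other group. Levels are in FPKM, fragment counts scaled to transcript length and library total, and the depth of a library is unknown. Less RNA per glial cell and fewer glial cells cannot be told apart in such samples.

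DNBS_GR159897 replicate 1 stood apart from the other 11 libraries. Its 10 measured glial markers summed to 12.8 FPKM, with Foxd3 and Kcna1 listed at 0, against 327 to 2346 FPKM elsewhere. Its 10 epithelial markers summed to 1198 FPKM against at most 39.9 elsewhere. Smooth muscle markers, at 1736 to 6761 FPKM in the other 11 libraries, show that RNA of other cells was present in all of them. Rows with an annotated transcript took 83.5% to 92.6% of summed FPKM in Saline_Vehicle, 53.8% to 84.0% in DNBS_Vehicle, 75.4% to 95.1% in Saline_GR159897 and 22.6%, 56.4% and 64.5% in DNBS_GR159897. The part of these differences in the results below was not tested, and the comparisons that use that library are also given without it. Neutrophil markers summed to 0.37 to 2.05 FPKM in Saline_Vehicle, 12.0 to 578 FPKM in DNBS_Vehicle, 0.90 to 12.1 FPKM in Saline_GR159897 and 47.7 to 253 FPKM in DNBS_GR159897, and macrophage markers to 68.2 to 116, 49.4 to 260, 43.1 to 56.8 and 34.5 to 184 FPKM.

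Promoter sequences are shown for 4 members that differ in coding size and in the sign of their change with DNBS: Sdha and Ndufs8, lower, and Uqcrh and Cox7c, higher. Each runs from 250 bases before to 50 after the start of the gene, on the minus strand of GRCm38.p6 (RefSeq), 5′ to 3′, at chr13:74350191-74350490, chr19:3912725-3913024, chr4:116075021-116075320 and chr13:86046746-86047045. Capitals mark matches to the NRF1 motif or the ETS core CCGGAAG on either strand.
Sdha: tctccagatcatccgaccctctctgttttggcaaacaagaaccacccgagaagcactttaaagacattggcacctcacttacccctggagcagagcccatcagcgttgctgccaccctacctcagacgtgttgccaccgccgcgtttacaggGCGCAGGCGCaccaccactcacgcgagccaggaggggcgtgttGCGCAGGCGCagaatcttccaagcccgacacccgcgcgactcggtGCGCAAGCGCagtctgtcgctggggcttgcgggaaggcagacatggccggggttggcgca
Ndufs8: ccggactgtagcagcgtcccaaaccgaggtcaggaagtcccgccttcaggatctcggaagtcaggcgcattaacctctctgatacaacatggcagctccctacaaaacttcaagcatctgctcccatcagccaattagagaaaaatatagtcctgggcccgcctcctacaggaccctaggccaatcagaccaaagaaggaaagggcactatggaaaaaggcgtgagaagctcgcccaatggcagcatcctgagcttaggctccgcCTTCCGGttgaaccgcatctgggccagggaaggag
Uqcrh: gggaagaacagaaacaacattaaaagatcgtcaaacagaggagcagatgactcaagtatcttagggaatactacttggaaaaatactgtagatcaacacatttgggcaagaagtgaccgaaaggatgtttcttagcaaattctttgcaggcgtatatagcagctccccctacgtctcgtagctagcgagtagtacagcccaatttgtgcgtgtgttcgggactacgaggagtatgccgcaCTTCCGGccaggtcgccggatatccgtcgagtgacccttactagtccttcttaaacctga
Cox7c: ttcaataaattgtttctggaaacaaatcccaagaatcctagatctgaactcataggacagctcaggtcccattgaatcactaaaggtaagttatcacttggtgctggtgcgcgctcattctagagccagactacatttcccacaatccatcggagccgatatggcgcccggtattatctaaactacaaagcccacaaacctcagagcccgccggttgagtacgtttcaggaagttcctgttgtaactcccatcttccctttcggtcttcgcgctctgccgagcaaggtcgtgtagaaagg
The Sdha window held 3 NRF1 matches, first bases at -98, -55 and -10 from the start. Ndufs8 held 1 ETS core match on the opposite strand at 16, Uqcrh 1 at -10, and Cox7c neither motif. Bases that match the NRF1 motif on both strands count once; the motif shares no bases with the ETS core in these windows. Of the 61 members with a RefSeq promoter, 16 (26.2%) held the NRF1 motif and 16 (26.2%) the ETS core, against 5.19% and 9.93% of 27025 symbols. In the first DNBS comparison the median log2 change was 0.24 for the 16 members with the NRF1 motif and 0.21 for the 45 without. It was 0.35 for the 16 with the ETS core and 0.21 for the 45 without.

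The members were abundant. Of 77, 41 had a mean of 100 FPKM or more over the 12 libraries, 7 had a mean under 20 FPKM, and 72 reached 1 FPKM in every library. Ndufa2 (922 FPKM), an accessory subunit, was highest in complex I, Uqcr11 (901 FPKM) in complex III, Cox6b1 (820 FPKM) in complex IV, Atp5h (335 FPKM), of the peripheral stalk, in complex V, and Sdhb (94.4 FPKM), the iron-sulfur subunit, in complex II. Ndufs1, the largest core subunit of complex I, was listed at 2.9 to 6.5 FPKM. Isoforms were uneven: Cox4i1 had a mean of 446 FPKM and the lung-enriched, hypoxia-linked Cox4i2 1.82 FPKM. Cox7a2 had a mean of 311 FPKM and its muscle form Cox7a1 26.7 FPKM, while Cox6b1 stood at 820 FPKM against 10.3 for the testis form Cox6b2. Ndufa4 stood at 265 FPKM against 0.63 for Ndufa4l2.

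Summed over all 77 members, the Saline_Vehicle libraries held 11722, 12454 and 11942 FPKM and the DNBS_Vehicle libraries 16502, 15247 and 17206 FPKM. The 2 groups did not overlap. The Saline_GR159897 libraries held 9617, 14213 and 13875 FPKM and the DNBS_GR159897 libraries 4971, 10866 and 20487 FPKM, the widest spread of the 4 groups. Complex III summed to 1400 ± 189 FPKM in Saline_Vehicle and 2730 ± 341 FPKM in DNBS_Vehicle (SD, n = 3), while complex II stood at 267 ± 43.3 and 185 ± 65.7 FPKM. As a share of annotated FPKM the members took 4.91% ± 0.27 in Saline_Vehicle, 6.54% ± 0.45 in DNBS_Vehicle, 5.17% ± 1.28 in Saline_GR159897 and 5.99% ± 1.80 in DNBS_GR159897 (SD, n = 3), or 5.48% and 8.0% without its replicate 1. As a share of all summed FPKM they took 4.33% ± 0.06, 4.60% ± 0.74, 4.20% ± 0.58 and 3.09% ± 2.07 (SD, n = 3). By that share the vehicle groups overlapped, with DNBS_Vehicle replicate 2 at 3.79%, below every Saline_Vehicle library, and complex IV stood at 1.12% ± 0.11 in Saline_Vehicle and 1.08% ± 0.13 in DNBS_Vehicle. Under the antagonist the direction with DNBS was opposite for the 2 shares, and without replicate 1 the share of all summed FPKM was 3.09% and 5.16%. These sums and shares follow the most abundant members and were not tested.

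**Figure D1:**
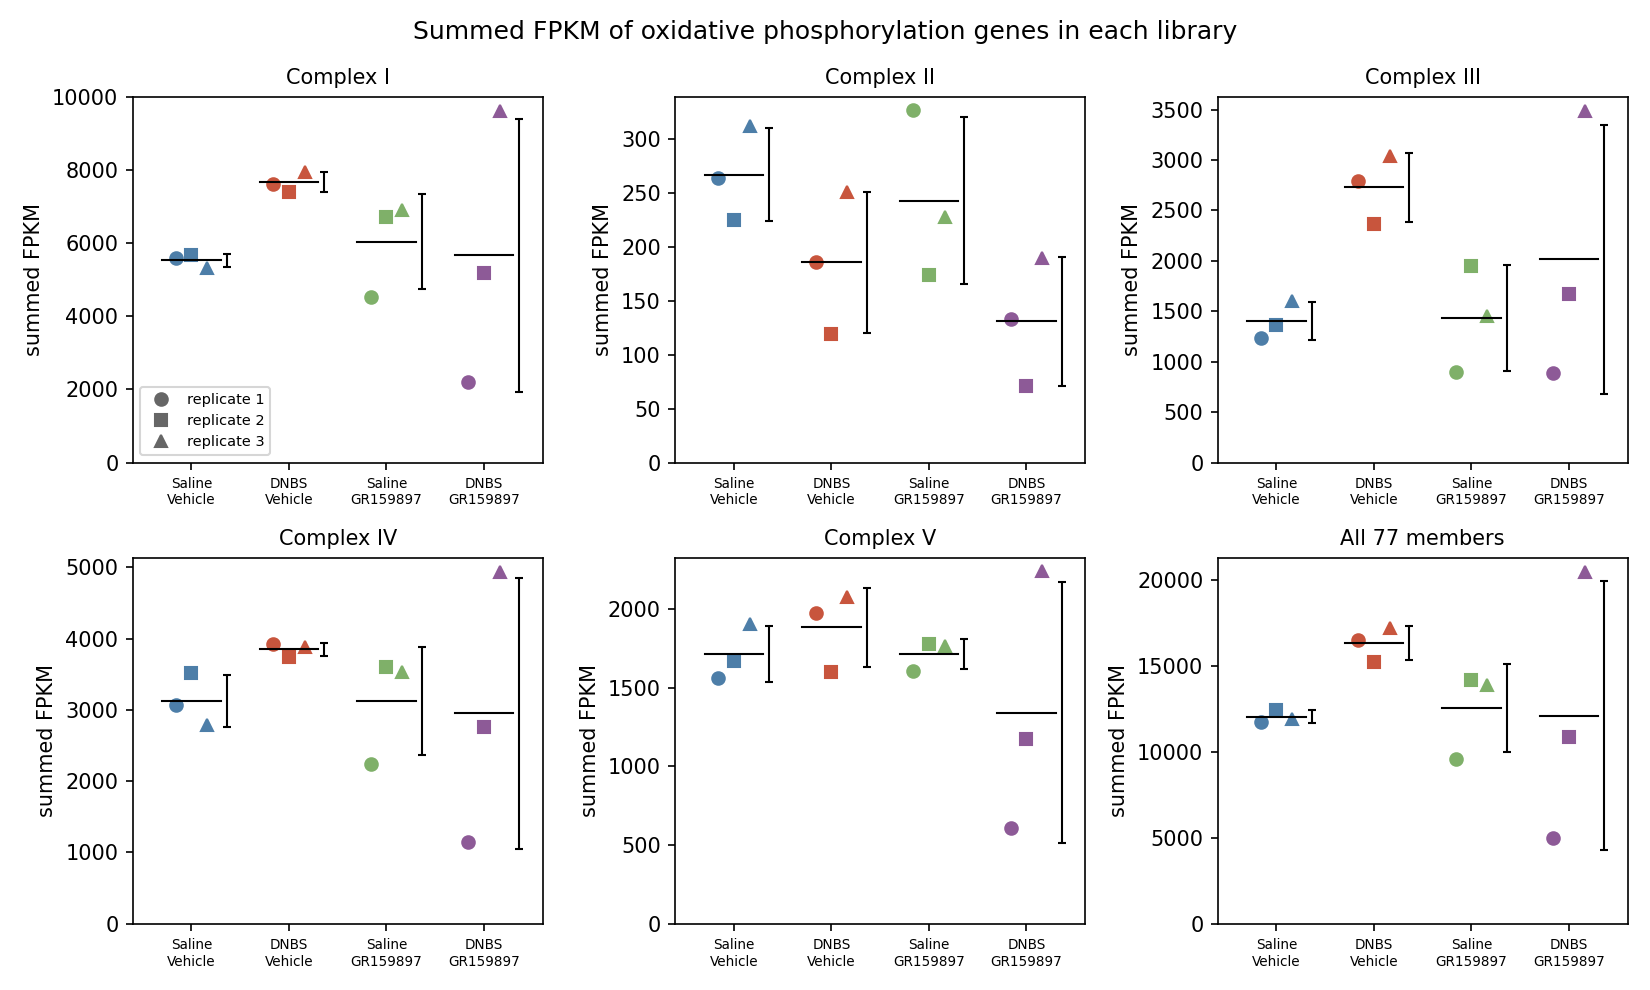
Summed FPKM of the members of each complex and of all 77 (y axes from 0) in each library of the 4 groups (x axis). Points are libraries, lines group means and bars 1 SD (n = 3); complexes I, III and IV lie higher in all DNBS_Vehicle than in all Saline_Vehicle libraries, and DNBS_GR159897 spans the widest range in the panel of all 77 members, though not in that of complex II.

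The first comparison asks how the members differ 48 hours after DNBS without the antagonist. No member passed the threshold (0 of 77 at an adjusted p under 0.05 with limma, against 0.321% of all 12777 genes tested), with 1 higher (4.87% of all genes) and 2 lower (7.75%) at an unadjusted p under 0.05. The number higher rose to 7 (against 6.86% of all genes) when DNBS_GR159897 replicate 1, in neither group, was left out of the fit. It was 7 (against 8.05%) with library weights and 16 (against 7.20%) when only these 2 groups were fitted. In each of these fits 3 were lower, against 10.7% of all genes without DNBS_GR159897 replicate 1 and 12.4% with library weights. For the fit of only these 2 groups the share of all genes that were lower is not given here. A change below is a log2 fold change on the FPKM + 1 scale, given with its SE. The median change was -0.01 over members and -0.11 over all genes, with 38 members higher and 39 lower. Without DNBS_Vehicle replicate 2 it was 0.28 over members and -0.11 over all genes, with 52 members higher and 25 lower. Libraries did not overlap for 23 members that were higher (29.9%, against 9.53% of all genes) and 10 that were lower (12.99%, against 14.9%).

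The signs of the changes are given by role; differences between roles were not tested. In complex I all 7 core subunits, which carry out electron transfer, had a negative change (median -0.37), and 17 of 25 accessory subunits a positive one (median 0.33). Ndufs8, a core subunit with iron-sulfur clusters, was at 225, 147 and 215 FPKM in Saline_Vehicle libraries, and with DNBS at 118, 37.0 and 155 FPKM. The groups overlapped, and the change was -1.12 ± 0.84 (limma, adjusted p = 0.627). Ndufa6, an accessory subunit of the LYR family, was at 193, 221 and 215 FPKM in Saline_Vehicle libraries, and with DNBS at 496, 428 and 643 FPKM. Every DNBS_Vehicle library lay above every Saline_Vehicle library, and the change was 1.29 ± 0.68 (limma, adjusted p = 0.463).

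In complex II all 4 subunits had a negative change (median -0.81). Sdha, the flavoprotein that oxidises succinate, was at 61.5, 34.6 and 80.0 FPKM in Saline_Vehicle libraries, and with DNBS at 16.5, 51.9 and 10.7 FPKM. The groups overlapped through DNBS_Vehicle replicate 2, and the change was -1.35 ± 0.64 (limma, adjusted p = 0.403). Sdhc, a membrane anchor (chr1:171127165-171150603, minus strand, GRCm38), was at 44.9, 49.9 and 53.8 FPKM in Saline_Vehicle libraries, and with DNBS at 30.0, 22.2 and 43.8 FPKM. These did not overlap, with a change of -0.66 ± 0.43 (limma, adjusted p = 0.566).

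In complex III the 5 small subunits had a positive change (median 1.05). Uqcrq, a small subunit of 82 residues (chr11:53427922-53430831, minus strand, GRCm38), was at 160, 92.7 and 88.0 FPKM in Saline_Vehicle libraries, and with DNBS at 285, 397 and 334 FPKM. The groups did not overlap, and the change of 1.61 ± 0.66 was the largest of the 77 (limma, adjusted p = 0.339). Uqcrh, the hinge subunit shown above with its ETS core match, changed by 1.05 ± 0.52 (limma, adjusted p = 0.432). Uqcrc1, a large core protein, had values of 67.6 to 81.2 FPKM and 17.9 to 62.4 FPKM, with a change of -0.84 ± 0.66 (limma, adjusted p = 0.650).

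In complex IV 8 of 15 members had a positive change. Cox7c, the small subunit whose promoter is shown above, was at 155, 207 and 146 FPKM in Saline_Vehicle libraries, and with DNBS at 329, 332 and 321 FPKM. The groups did not overlap, and the change was 0.96 ± 0.52 (limma, adjusted p = 0.480). Cox4i1 and Cox5a, nuclear-encoded subunits around the mitochondrially encoded core of the complex, changed by -0.39 ± 0.57 and 0.58 ± 0.53. In complex V, Atp5a1, Atp5b and Atp5c1 of the F1 head and stalk changed by -0.55 ± 0.45, -0.52 ± 0.72 and -0.81 ± 0.58, while Atp5e, the smallest F1 subunit, changed by 0.68 ± 0.60. Atp5s, not a structural subunit, had the smallest p of all members: it was at 6.24, 6.69 and 5.48 FPKM in Saline_Vehicle libraries, and with DNBS at 1.87, 0.61 and 2.55 FPKM, a change of -1.49 ± 0.40 (limma, adjusted p = 0.160).

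**Figure D2:**
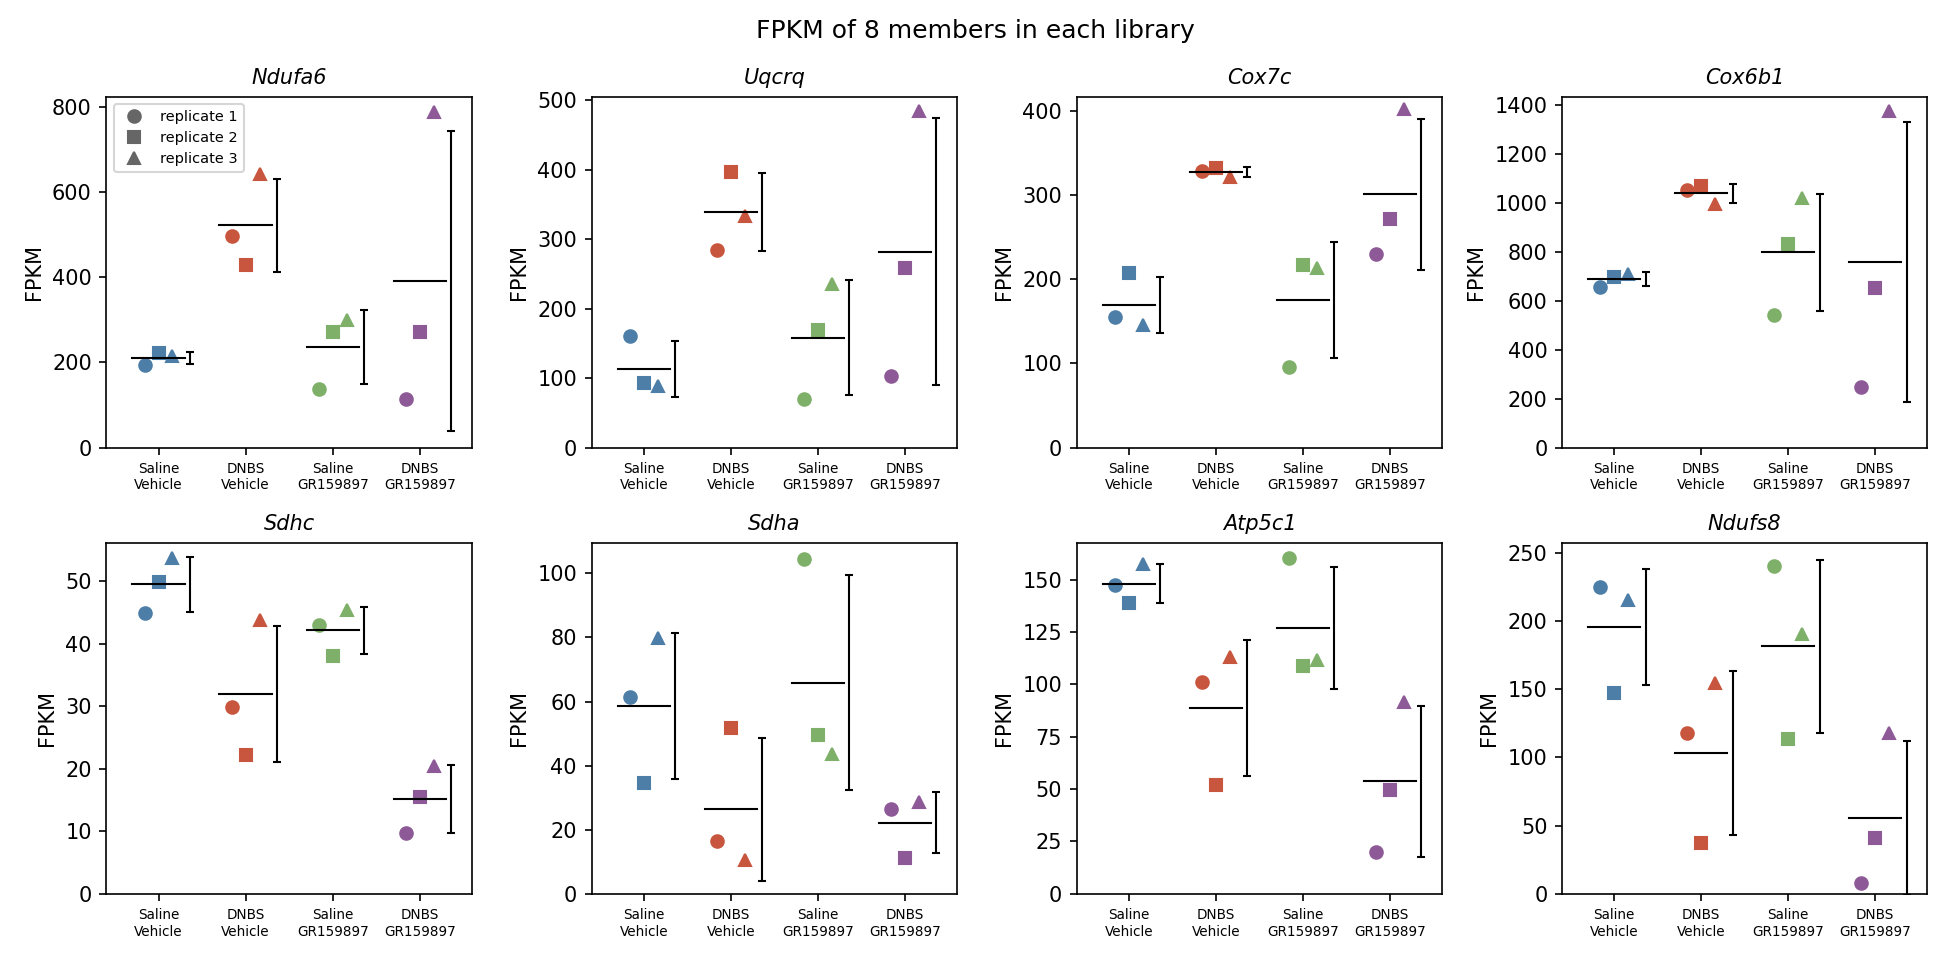
FPKM (y axes from 0) of 8 members in each library of the 4 groups (x axis); points are libraries, lines means and bars 1 SD (n = 3), ended at 0 where they would pass below it. Ndufa6, Uqcrq, Cox7c and Cox6b1 lie higher in all DNBS_Vehicle than in all Saline_Vehicle libraries, while Sdhc and Atp5c1 lie lower.

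The members' changes followed the length of their coding sequence. Of 20 members with a coding sequence under 300 bases, 16 had a positive change in the first comparison (median 0.66), of 36 from 300 to under 600 bases 21 (median 0.14), and of 21 with 600 bases or more 1 (median -0.48). Spearman's rho was -0.59 across the 77 members, which share the same libraries, and 0.07 across 10758 genes with a coding length. The lengths split by role: no complex II member is under 300 bases, and 10 of complex I and 6 of complex V have 600 or more. Libraries did not overlap, with DNBS_Vehicle higher, for 14 of the 20 shortest members (70.0%), against 25.5% of 255 genes of that length. The corresponding counts were 9 of 36 (25.0%, against 14.2%) and 0 of 21 (against 8.0%).

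The choice of length measure was made with results in view. Of 4 measures tried, the lengths of the median, longest and shortest listed transcript were computed first and gave rho of -0.43, -0.34 and -0.15. Coding length was tried last, because short noncoding isoforms put Sdha and Uqcrc1 among the short genes, and it gave the strongest relation of the 4. The 300 and 600 base limits were also set late; a split at the members' median of 411 bases gave 28 of 38 shorter members with a positive change (median 0.46) and 10 of 39 longer ones (median -0.37).

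The gap between short and long members also varied among libraries without DNBS. The median log2(FPKM + 1) of the 20 shortest members exceeded that of the 21 longest by 1.38, 1.26 and 0.75 in Saline_Vehicle and by 2.03, 2.70 and 1.90 in DNBS_Vehicle. It was 0.04, 1.89 and 1.79 in Saline_GR159897 and 2.21, 2.49 and 2.94 in DNBS_GR159897. Saline_GR159897 replicate 1, with the smallest gap, had the largest annotated share (95.1%). Against the other 2 libraries of its group its short members had a median difference of -1.06 and its long members of 0.73, as large as the differences with DNBS. The gap was mostly larger in libraries with a smaller annotated share. It was 0.75 at 92.6% in Saline_Vehicle replicate 3 and 2.70 at 53.8% in DNBS_Vehicle replicate 2. DNBS_GR159897 replicate 1, at 22.6%, had a gap of 2.21. At 83.5% and 84.0% the gap was 1.26 in Saline_Vehicle replicate 2 and 1.90 in DNBS_Vehicle replicate 3. The part of that share in the result was not tested.

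**Figure D3:**
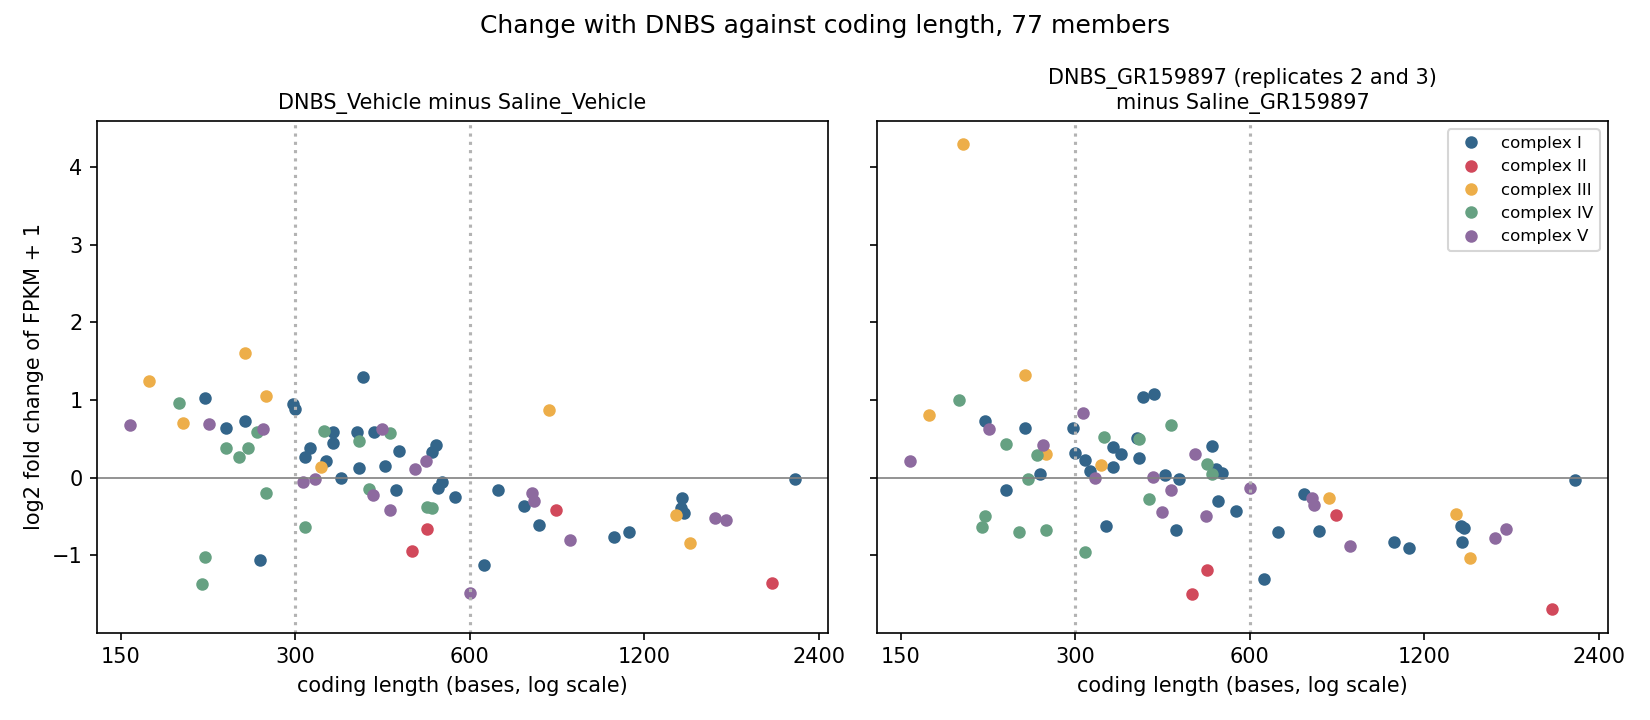
Log2 fold change of FPKM + 1 (y axis) against coding length (x axis, log scale) for the 77 members, coloured by complex, without the antagonist (left) and with it, replicate 1 of DNBS_GR159897 left out (right). Dotted lines mark 300 and 600 bases; 1 of 21 members of 600 bases or more lies above 0 on the left and 0 of 21 on the right.

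**Figure D4:**
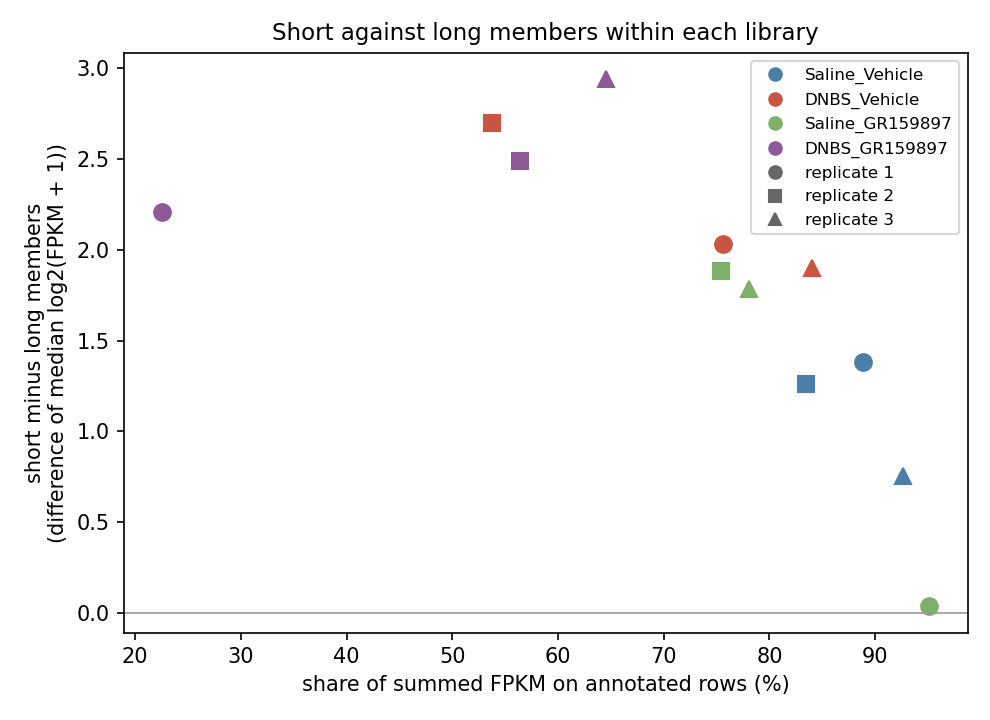
Median log2(FPKM + 1) of the 20 shortest minus that of the 21 longest members (y axis) against the share of summed FPKM on annotated rows (x axis, %), with 1 point for each of the 12 libraries. The gap runs from 0.04 in Saline_GR159897 replicate 1, at 95.1%, to 2.94 in DNBS_GR159897 replicate 3, at 64.5%.

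The second comparison asks what GR159897 does after a saline enema. No member passed (0 of 77, against 0% of 12777 genes, limma), with 0 higher (against 0.657%) and 2 lower (against 1.04%) at an unadjusted p under 0.05. The median change was -0.06 over members and -0.03 over all genes. Libraries did not overlap for 0 members higher (against 3.04% of all genes) and 6 lower (7.79%, against 4.18%). Among those 6 were Atp5g1 and Atp5g2, which encode the ring subunit c at a mean of 31.7 and 34.5 FPKM. The third gene for subunit c, Atp5g3, at a mean of 206 FPKM, had a positive change, 0.51 ± 0.52 (limma, adjusted p = 1), against -0.70 ± 0.78 for Atp5g1 and -0.64 ± 0.56 for Atp5g2 (limma, adjusted p = 1 for both). The changes named by p were Uqcrfs1, the Rieske iron-sulfur protein, at 1.71 ± 0.90, and Ndufa4l2 at -0.92 ± 0.38 (limma, adjusted p = 1 for both).

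The next comparison asks what GR159897 does after DNBS. No member passed (0 of 77, against 0% of 12778 genes, limma), with 0 higher (against 2.44%) and 3 lower (against 5.69%) at an unadjusted p under 0.05. The number lower was 38 (against 13.2%) without DNBS_GR159897 replicate 3 and 0 (against 2.69%) without replicate 1, and 0 to 5 without each of the other 10 libraries. The median change was -0.75 with 67 members lower, against -0.21 over all genes. Without DNBS_GR159897 replicate 1 the median was -0.18 with 55 members lower, against -0.06 over all genes. That library was the lowest of the 12 for 54 of 77 members, and replicate 3 of the same group the highest for 30. Libraries did not overlap for Sdhc alone, lower (1.299% of members, against 6.89% of all genes), and for 0 members higher (against 3.19%). Without replicate 1 these were 2 members lower, Sdhc and Cox7a2l (against 9.0% of all genes), and 0 higher (against 7.19%). Sdhc was at 9.7, 15.5 and 20.5 FPKM in DNBS_GR159897, all below its DNBS_Vehicle values, with a change of -1.03 ± 0.43 (limma, adjusted p = 0.607) and of -0.76 ± 0.36 without replicate 1 (limma, adjusted p = 1).

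DNBS was then set against saline under the antagonist. No member passed (0 of 77, against 1.38% of 12778 genes, limma), with 0 higher (against 5.77%) and 9 lower (against 16.9%) at an unadjusted p under 0.05. The number lower was 36 (against 20.9%) without DNBS_GR159897 replicate 3. Of these 36, 3 passed the threshold. The share of all genes past the threshold in that fit is not given here, so the 3 cannot be set against it. Without its replicate 1 there were 4 lower (against 11.03%) and 3 higher (against 6.01%). The number lower was 3 (against 11.3%) without Saline_GR159897 replicate 1 and 5 (against 13.5%) without Saline_GR159897 replicate 3. It was 6 without DNBS_GR159897 replicate 2, where the share of all genes is not given here. The median change was -0.66 over members and -0.27 over all genes. Without replicate 1 of DNBS_GR159897 it was -0.01 over members, with 37 higher and 40 lower, and -0.13 over all genes. Libraries did not overlap for Cox7c, higher (1.299%, against 6.67%), and for 10 members lower (12.99%, against 17.6%). Without replicate 1 of DNBS_GR159897 these were 5 members higher (6.49%, against 12.9%) and 11 lower (14.3%, against 20.7%). Sdhc was at 43.1, 38.1 and 45.5 FPKM in Saline_GR159897, all above DNBS_GR159897, and changed by -1.47 ± 0.43 (limma, adjusted p = 0.0884). Cox6b2 changed by -1.62 ± 0.53 (limma, adjusted p = 0.109) and Ndufs8 by -2.29 ± 0.84 (limma, adjusted p = 0.140). Without replicate 1 the 3 changes were -1.20 ± 0.36, -0.96 ± 0.39 and -1.30 ± 0.62 (limma, adjusted p = 0.135, 0.237 and 0.315). Without replicate 1 the relation with coding length had a rho of -0.59, with 14 of 20 short members higher and 0 of 21 long ones. With all 3 libraries rho was -0.46. It was weaker when Saline_GR159897 replicate 1 was left out, as given with the alternatives at the end. The gap between short and long members in that saline library was 0.04, against 1.89 and 1.79 in replicates 2 and 3 of its group. Comparisons that use the same group share its libraries, so their changes are given side by side only.

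The interaction asks whether the DNBS change differs between drug arms. No member passed (0 of 77, against 0% of 12777 genes, limma), with 0 higher (against 1.13%) and 0 lower (against 2.46%) at an unadjusted p under 0.05; without DNBS_GR159897 replicate 3 the number lower was 10 (against 5.60%). The median was -0.67 over members and -0.18 over all genes. Without replicate 1 of DNBS_GR159897 these were -0.12 and -0.04. Averaged over both drug arms, 1 of 77 members passed, Sdhc, against 9.6% of 12777 genes and 6.83% counting only lower ones. At an unadjusted p under 0.05 there were 2 higher (against 8.22%) and 10 lower (against 20%), which became 10 and 11 without DNBS_GR159897 replicate 1 (against 9.63% and 17.7%), and 1 and 26 without its replicate 3 (against 9.0% and 22.7%). In the same contrast 6.83% of all genes fell and 2.76% rose past the threshold. Of 8 glial markers 3, Sox10, Erbb3 and Gpr37l1, fell (median of the 8 -1.59). Of 8 macrophage markers 3, Cd68, C1qc and Mrc1, rose (median of the 8 0.98). Of 5 neutrophil markers 4, S100a8, S100a9, Il1r2 and Retnlg, rose (median of the 5 3.75). Without DNBS_GR159897 replicate 1 these counts were 2, 3 and 3, with medians of -0.99, 1.12 and 3.39. Of all genes 5.84% fell and 3.90% rose in that fit. Sox10 no longer passed, and the neutrophil markers that rose were Il1r2, Mmp9 and S100a8. The part of these cells in the members' changes was not tested. Sdhc fell by 1.07 on the log2 scale (SE 0.31, limma, adjusted p = 0.0467). It missed the threshold in 13 alternatives, among them the sex term and 9 of the 12 fits that leave out 1 library, with limma adjusted p from 0.0142 to 0.110 over all alternatives, and was negative in each. Without replicate 1 of DNBS_GR159897 4 members passed, 3 higher (against 3.90% of all genes) and 1 lower (against 5.84%). Without replicate 3 of that group 9 passed, all lower. The share of all genes past the threshold in that last fit is not given here, so the 9 cannot be set against it. Uqcrq (1.17 ± 0.47, adjusted p = 0.124, limma) and Cox7c (0.90 ± 0.37, adjusted p = 0.135, limma) missed the threshold with all libraries and passed it without replicate 1, at adjusted p = 0.0237 and 0.0448. Sdha changed by -1.44 ± 0.45 (limma, adjusted p = 0.0618), and by -1.53 ± 0.45 without replicate 1 (limma, adjusted p = 0.0525).

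Other genes of the pathway were taken from lists of assembly factors, carriers and enzymes. No gene of these lists passed without the antagonist, between the drug arms or in the interaction. Idh3a, a subunit of the isocitrate dehydrogenase of the tricarboxylic acid cycle, fell with DNBS under the antagonist, from 12.7 ± 7.89 to 1.98 ± 0.44 FPKM (SD, n = 3), by 2.05 on the log2 scale (limma, adjusted p = 0.0395), and missed the threshold without DNBS_GR159897 replicate 1 (-2.16 ± 0.46, limma, adjusted p = 0.0673). Averaged over both arms, where 6.83% of all genes fell, 2 of 14 complex I assembly factors, 1 of 14 for complex IV, 2 of 6 carriers and subunits outside the name patterns, and 2 of 13 cycle enzymes fell, with 0 higher. In that contrast 0 passed of 10 complex II and III assembly factors, of 5 genes of complex V assembly and inhibition, of 11 biogenesis regulators and of 11 outer membrane and carrier proteins. Without DNBS_GR159897 replicate 1 the counts lower were 1 of 14 for complex I assembly, 0 of 14 for complex IV assembly, 1 of 6 and 1 of 13, against 5.84% of all genes. With all libraries these include Etfdh, which feeds electrons to ubiquinone (-1.26 ± 0.31, limma, adjusted p = 0.0282), and the assembly factor Cox19 (-1.25 ± 0.34, limma, adjusted p = 0.0384). Without replicate 1 Etfdh passed (limma, adjusted p = 0.0424) and Cox19 did not (limma, adjusted p = 0.0531). Of 13 mitochondrially encoded subunits 1, mt-Nd6, was in the analysed rows and passed, lower, in the averaged contrast, but not without replicate 1 (limma, adjusted p = 0.0871). Its mean was 68.5 ± 82.2 FPKM in Saline_Vehicle (SD, n = 3) and under 1 FPKM in each of the other groups, Saline_GR159897 included.

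A few members were listed at separate levels that did not follow the groups. Cox8a, a small subunit of complex IV, was at 22.3 to 31.3 FPKM in 6 libraries and 256 to 457 FPKM in the other 6, with both levels in every group. Uqcr10, a small subunit of complex III, was at 5.1 to 11.2 FPKM in 4 libraries and 72.6 to 717 FPKM in the other 8. Uqcrfs1 was at 11.4 and 15.7 FPKM in Saline_Vehicle replicates 1 and 2, 14.8 FPKM in DNBS_Vehicle replicate 3 and 34.9 to 133 FPKM elsewhere. Group differences of these 3 rest on which libraries hold the low value: Uqcr10 changed by 3.39 ± 1.83 with DNBS under the antagonist (limma, adjusted p = 0.285), and by 4.30 ± 2.15 without DNBS_GR159897 replicate 1 (limma, adjusted p = 0.343).

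**Figure D5:**
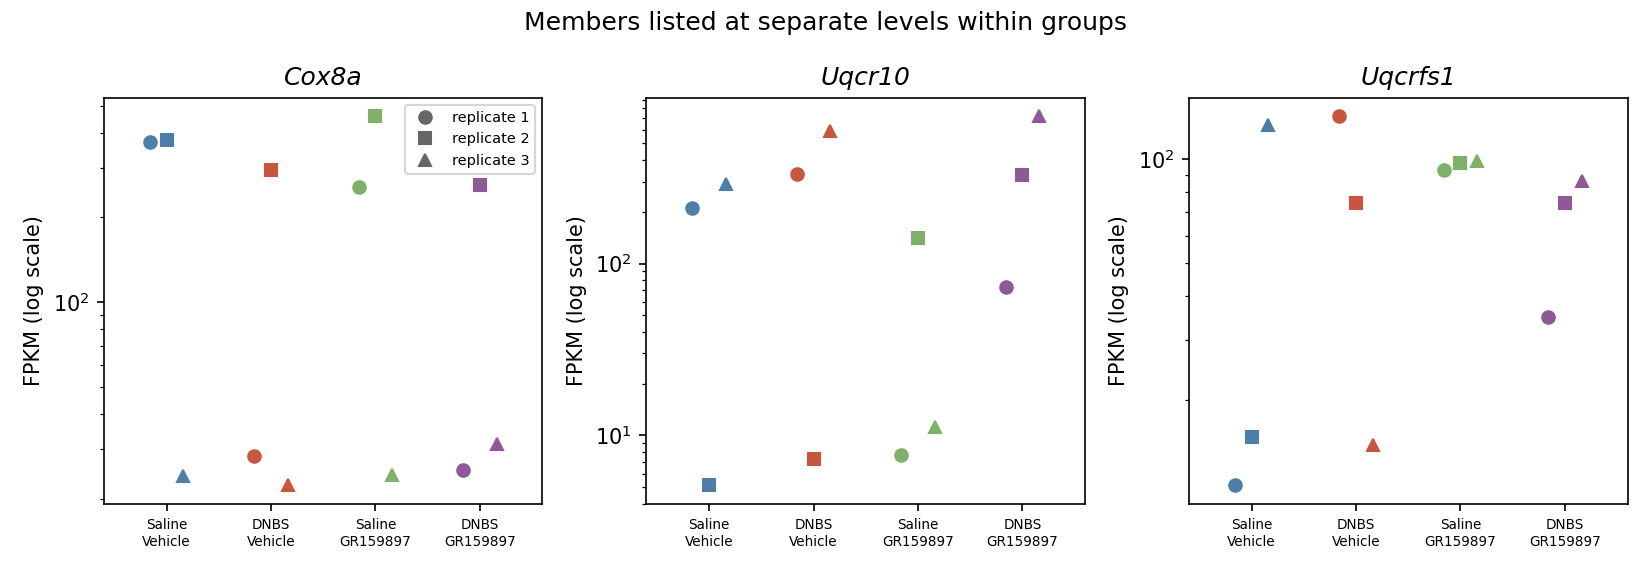
FPKM (y axes, log scale) of Cox8a, Uqcr10 and Uqcrfs1 in each library of the 4 groups (x axis); points are libraries. Cox8a lies at 22.3 to 31.3 or at 256 to 457 FPKM in every group.

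Across libraries the members varied together in part. The median Pearson r over all 2926 pairs was 0.50 in 12 libraries and 0.24 in the 11 without DNBS_GR159897 replicate 1. In those 11 it was 0.40 among the shortest members, 0.69 among the longest and -0.29 between the shortest and the longest. The pairs share library, scaling and group, so these are descriptions.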

How the data were processed

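The authors deposited FPKM values with 2 decimals per assembled row and library; per the submitters' processing notes the tools include StringTie 1.3, HISAT2 2.0, cutadapt 1.10 and FastQC 0.10.1. No source used here names the genome build. Of 99547 rows, 24432 with an annotated transcript were used, 1 per symbol by highest mean. Members, lists and the length measure were chosen with earlier results of these data known. log2(FPKM + 1) was fitted with limma 3.58.1 (R 4.3.3), trended and robust, 4 group means over 12 libraries (8 residual degrees of freedom), for genes that reached 1 FPKM in 3 or more libraries; all 77 members passed. Tests were two-sided, Benjamini-Hochberg adjusted over all genes, threshold 0.05. Labels do not tell whether replicates had separate preparations, so p-values measure the spread between these libraries. Gfap was blank in Saline_Vehicle and left out there. Positions and coding lengths came from GENCODE (GRCm38) through transcript identifiers; coding length is the longest coding sequence listed. Exons of 24 members overlap another gene, 22 of them on the opposite strand, and 11 annotated pseudogenes carry member names; how reads were split is unknown. Named members were the highest per complex, core subunits, isoform pairs, those past the threshold, the 3 smallest p in each direction, and up to 3 genes by p from the pathway lists; Cox7c, Cox8a, Ndufs8 in the first comparison, Atp5c1, Atp5e, Atp5g1, Atp5g2, Atp5g3, Cox7a2l and mt-Nd6 were named after their values were seen. On simulated data of the first comparison (12777 genes) 0.8% of log2 changes of 1, 38.4% of 2, 75.6% of 3 and 83.6% of 4 were recovered. The simulated noise was normal and independent between libraries. Its spread for each gene was taken over all 4 groups, with DNBS_GR159897 replicate 1 included. Alternatives were other pseudocounts, filters and scalings, a sex term, a replicate block, library weights, the 2 groups alone and leaving out each library.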

Additional observations from a re-analysis of the deposited data

Results flagged for a closer look

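Atp5g3, a gene for subunit c of the ATP synthase, was at 228, 200 and 343 FPKM in DNBS_Vehicle, each above the Saline_Vehicle mean, and at 148, 136 and 210 FPKM in DNBS_GR159897, each below the Saline_GR159897 mean. In both arms the DNBS and saline libraries overlapped. The difference between arms was -1.13 on the log2 scale, and the interaction test did not pass (SE 0.73, limma, adjusted p = 0.957).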

How the results depend on the processing

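Depth is unknown, and most log2 changes of 1 were missed on simulated data. No paired analysis was made the main one. Labels share replicate numbers, but the deviations of same-numbered libraries from their group means correlated at only -0.09 to 0.20. Between libraries of separate groups with different numbers these correlations ran from -0.27 to 0.22. With the replicate block 0 members passed in the averaged contrast in place of 1, and no other count of members past the threshold changed; at an unadjusted p under 0.05 the lower members numbered 1, 4, 8 and 12 in place of 2, 3, 9 and 10 for GR159897 after saline, for GR159897 after DNBS, for DNBS under the antagonist and in the averaged contrast. Over all genes the block gave 14 higher and 4 lower in place of 30 and 11 in the first comparison, and 15 and 16 in place of 49 and 127 with DNBS under the antagonist. In the averaged contrast 0 members also passed with no filter, scaling to the median gene or the sex term. Scaling to the annotated total gave 3, with 2 higher (against 3.15% of all genes) and 1 lower (against 4.78%). With library weights 7 passed, 1 higher (against 5.40%) and 6 lower (against 10.2%). The number was 0 to 9 leaving out each library, and 4 without DNBS_GR159897 replicate 1 scaled to the annotated total. Shares over all genes are not given here for the counts that leave out a library. In the first comparison library weights gave 1 (Atp5s, lower, against 1.42% of all genes lower). With DNBS under the antagonist leaving out 1 library gave 0 to 3. Without DNBS_GR159897 replicate 1 the median member change with DNBS under the antagonist was -0.014, and 0.10 when also scaled, with -0.037 for DNBS_GR159897 against DNBS_Vehicle and 0.021 in the interaction; over each library left out in turn the first ran from -1.20 to -0.014. For DNBS_GR159897 against DNBS_Vehicle, without DNBS_Vehicle replicate 2 Uqcr10 reversed to -0.78, Atp5s to -0.12 and Atp5sl to -0.10; over each library left out they ran from -0.78 to 2.30, -0.12 to 0.45 and -0.14 to 0.56. Atp5sl also reversed to -0.074 with library weights and to -0.012 without DNBS_GR159897 replicate 1 with scaling added. The Spearman correlation with coding length in the first comparison was -0.68 with a filter at 5 FPKM and -0.50 without DNBS_Vehicle replicate 2. With the other 3 length measures it was -0.17, -0.15 and 0.06 under the antagonist and -0.25, -0.33 and -0.07 averaged. The correlation with coding length under the antagonist was -0.21 without Saline_GR159897 replicate 1. The scaling combined with leaving out a library and the length measures were chosen after seeing the data. The causes were not tested. Scaling to the median gene shifted the median of all genes in the first comparison from -0.11 to 0.03, with 43 members higher and 34 lower; scaling to the annotated total shifted it for DNBS_GR159897 against DNBS_Vehicle from -0.21 to 0.11, with 24 members higher.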
